A study of Mus musculus with 20 samples.

Results

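In all, 10 genes of the Wnt pathway were followed across mouse brain progenitor cell lines, control cells and cells that had been transduced or transformed. The genes were chosen by name, with earlier results of these data known. They were the target and feedback genes Axin2, Lgr5, Nkd1, Lef1 and Tcf7, the secreted inhibitors Wif1, Dkk3, Sfrp1 and Sfrp2, and the receptor Fzd1. Probe sets annotated with 1 gene symbol were found for 9 of the 10, 21 probe sets in all, out of 18193 genes measured. Tcf7 was not analysed here.

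The study compared 4 groups of 5 arrays, each array holding total RNA of 1 sample. Embryonic control and postnatal control were the control progenitors of the 2 ages. Embryonic transduced cells had been genetically modified by transduction, and postnatal transformed progenitors had been transformed by means that are not stated. Both are called modified cells here, each compared with the control of its age (the embryonic and the postnatal response). The labels name the source of every sample as a brain cell line, each with a line name of its own, numbered 1 to 5 within its group. They give no strain, no clone, no introduced sequence and no transforming agent. Whether the 5 samples of a group were grown separately is also not said, and the p-values therefore reflect the scatter among these 20 samples, possibly only its technical part. Values are linear signals as deposited, and a background level was set on each array from control probe sets for bacterial transcripts (107 to 221). Changes are on a log2(signal + 16) scale with the standard error (SE) of a limma fit over all 20 arrays, and calls required both an adjusted p under 0.05 and a 2-fold change. Of the probe sets of a gene, the brightest represents it, and its signals are given in the order of arrays 1 to 5.

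Wnt ligands bind a Frizzled receptor together with an Lrp co-receptor. This stops the destruction complex that removes β-catenin, which then enters the nucleus and activates genes with the DNA-binding proteins of the Tcf and Lef family. Several of the activated genes feed back on the pathway, and secreted inhibitors such as Wif1 and the Sfrp proteins bind ligands outside the cell. In the developing brain the pathway is known for its part in regional patterning, in the division of progenitors and in the timing of oligodendrocyte maturation.

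The progenitor markers Olig1, Olig2, Sox2, Nes, Pdgfra and Cspg4 lay above background on all arrays of every group, but at levels that moved with the groups. In embryonic cells the mean of Pdgfra was 7629 in control and 596 in transduced cells, that of Cspg4 4278 and 1261, and that of Sox10 2601 and 189, with Sox10 above background on 2 of 5 transduced arrays. Olig1 (110600 to 60870) and Olig2 (70640 to 37230) fell less steeply. Nes read 9787 and 8633, and Sox2 was nearly unchanged between these groups (45710 and 45950). The summed signal of 7 progenitor genes was 242010 to 270060 in embryonic control, 148710 to 160100 in embryonic transduced, 289630 to 343160 in postnatal control and 241060 to 253420 in postnatal transformed cells. That of 5 mature oligodendrocyte genes was 24138 to 28140, 11060 to 14836, 36725 to 108320 and 27502 to 29892 in the same order. Its largest part was Cnp, with means of 24610, 11470, 61130 and 27040. Mbp also lay above background on all arrays, but Mog on none. Mag lay above it on 0, 1, 4 and 0 of 5 arrays and Mobp on 3, 1, 2 and 2. Of 6 microglial genes, Aif1 and Itgam lay below background on all 20 arrays, while Csf1r lay above it on all and Cd68 on all but 1, with summed signals of 1145 to 1556, 1878 to 3057, 1024 to 1380 and 1364 to 1666. Of 6 endothelial genes, Pecam1 lay below background on all 20 arrays, while Kdr lay above it on all arrays of both modified groups and on 2 of 5 embryonic and 3 of 5 postnatal control arrays. The endothelial sums were 528 to 926, 968 to 1886, 312 to 915 and 662 to 1067. Of 7 mesenchymal and pericyte genes, 4 were above background on all 5 embryonic control arrays and 2 on all embryonic transduced arrays, with none in either postnatal group. The summed signal of these 7 genes ranged from 1572 to 2707 in embryonic control, 1259 to 1943 in embryonic transduced, 566 to 1416 in postnatal control and 805 to 1230 in postnatal transformed cells. The summed signal of 6 neuronal genes was 81977 to 87699 and 22863 to 24986 in the embryonic groups, and 64853 to 79385 and 89867 to 95743 in the postnatal groups. That of 6 astrocyte genes was 51760 to 66655, 68933 to 84853, 46486 to 86926 and 119330 to 125070 in the same order of groups. Its largest part was Aldoc, with means of 52200 in embryonic control and 76310 in embryonic transduced cells. Between these groups Slc1a2 (3231 to 1145) and Aldh1l1 (1015 to 260) fell. Aqp4 read 274 and 224, Gfap 140 and 274, and S100b 243 and 267. Single genes moved both ways from postnatal control to transformed cells. Means rose for Gap43 (18760 to 50370), Syt1 (1567 to 5859), Tubb3 (1247 to 4163), Aldoc (41560 to 91160) and S100b (10170 to 26640). They fell for Map2 (45660 to 32020), Rbfox3 (1419 to 195), Snap25 (1379 to 426), Gfap (5435 to 279), Aqp4 (2273 to 134) and Aldh1l1 (2752 to 223). Slc1a2 read 4607 and 4443. RNA integrity was read from the log2 ratio of 3' to 5' control probe sets, which had group means between -0.55 and -0.30 for Gapdh and between 0.25 and 0.42 for Actb. The part of these markers and ratios in the results was not tested. In such bulk samples, fewer cells of a type and less RNA per cell cannot be told apart.

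Within postnatal control, arrays 4 and 5 stood apart. Mki67, a marker of cycling cells, read 37266, 34816 and 35822 on arrays 1 to 3 and 5929 and 4351 on arrays 4 and 5. It read 3848 to 5403 in postnatal transformed, 32101 to 37623 in embryonic control and 27555 to 34283 in embryonic transduced cells. The summed signal of 7 proliferation genes was 174250 to 186680 in embryonic control, 162040 to 181020 in embryonic transduced, 19472 to 154540 in postnatal control and 23708 to 28578 in postnatal transformed cells, and its part in the comparisons was not tested. Results of the postnatal control group that depended on these 2 arrays are given with and without them.

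Lef1 and Fzd1 rose in both modified groups. Lef1, a partner of β-catenin on DNA and itself a target of the pathway, went from near background to a clear signal, and the Frizzled receptor Fzd1 more than doubled. In the embryonic cells Lgr5, a receptor for R-spondins and a marker of several stem cell types, fell by more than a factor of 2. Transformed postnatal cells also had higher Wif1 and Nkd1 and had lost most of the Sfrp2 signal. Axin2, the feedback gene most often read as a measure of Wnt activity, was slightly lower in both responses and was not called.

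**Figure D1:**
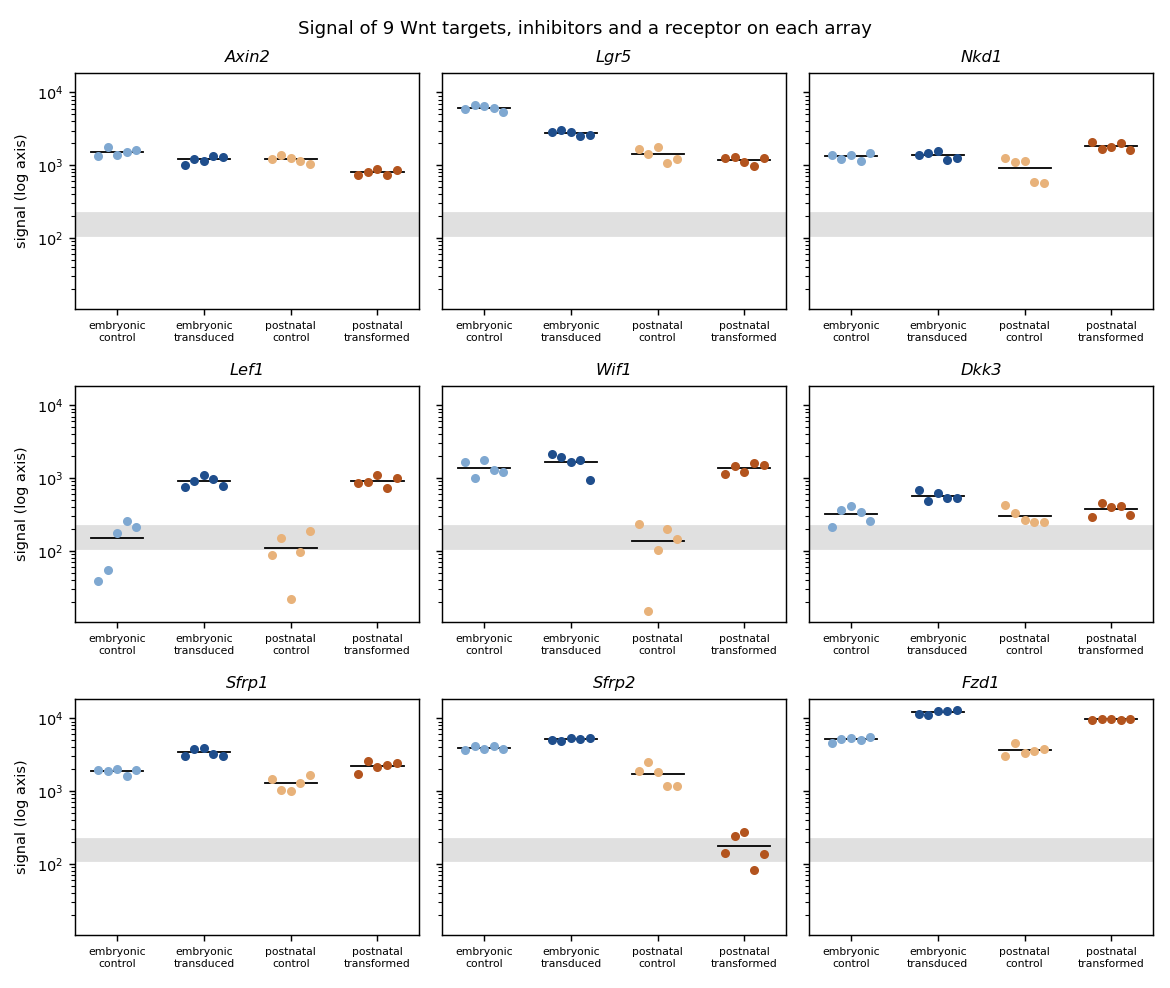
Signal on each array (points, arrays 1 to 5 from left to right within a group; log axis) and group mean (line) for the brightest probe set of 9 genes, with the range of background levels over the 20 arrays in grey. Lef1 lay between 721 and 1093 on the arrays of both modified groups and no higher than 261 on any control array, and Sfrp2 lay between 82.1 and 272 in postnatal transformed cells.

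The upstream sequences of Lef1, Fzd1, Wif1 and Sfrp2, the genes with the largest called responses, are shown because Tcf and Lef proteins bind short motifs in such regions. Each window holds the 250 bases before an annotated start, from RefSeq on GRCm38.p6, and 7 of the 10 listed genes had 1 or more windows, 11 in all. Searched on both strands were the 4 motifs made of CTTTG followed by AA, AT, TA or TT, no 2 of which can match at the same bases of a strand. At least 1 was found in 14.8% of 32851 windows of this length and in 1 of the 11. That match, CTTTGTA on the minus strand, spanning bases -147 to -141 from the start, lay in the window of the 4th annotated Lef1 start and is in capitals.
Lef1, 4th start, chr3:131156044-131156293, plus strand: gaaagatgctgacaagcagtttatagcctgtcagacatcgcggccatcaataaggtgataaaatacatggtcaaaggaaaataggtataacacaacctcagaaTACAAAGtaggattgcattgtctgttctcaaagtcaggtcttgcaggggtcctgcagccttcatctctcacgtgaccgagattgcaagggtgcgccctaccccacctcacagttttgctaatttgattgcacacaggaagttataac
Fzd1, chr5:4758217-4758466, minus strand: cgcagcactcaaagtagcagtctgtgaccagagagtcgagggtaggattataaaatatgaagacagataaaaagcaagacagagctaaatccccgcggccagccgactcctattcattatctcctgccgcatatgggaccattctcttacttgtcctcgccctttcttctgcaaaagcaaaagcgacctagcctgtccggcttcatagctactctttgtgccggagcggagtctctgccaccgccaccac
Wif1, chr10:121033754-121034003, plus strand: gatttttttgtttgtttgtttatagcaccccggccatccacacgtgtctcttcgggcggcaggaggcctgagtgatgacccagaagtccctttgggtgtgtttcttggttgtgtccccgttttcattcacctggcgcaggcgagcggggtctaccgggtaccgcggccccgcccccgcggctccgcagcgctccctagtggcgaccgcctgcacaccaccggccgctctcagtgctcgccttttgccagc
Sfrp2, chr3:83766071-83766320, plus strand: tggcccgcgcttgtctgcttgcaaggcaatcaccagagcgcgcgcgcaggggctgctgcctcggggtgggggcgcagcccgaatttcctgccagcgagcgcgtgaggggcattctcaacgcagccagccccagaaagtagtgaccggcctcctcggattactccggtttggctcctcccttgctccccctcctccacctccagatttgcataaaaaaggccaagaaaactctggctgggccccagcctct
The match is a description of letters, and the other 3 windows hold none of the 4 motifs.

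Among the target genes, Lef1 read 38.9, 55.1, 177, 261 and 212 on embryonic control arrays 1 to 5 and 757, 909, 1091, 959 and 775 on embryonic transduced arrays. It read 88.3, 149, 21.5, 95.1 and 185 in postnatal control and 845, 897, 1093, 721 and 996 in postnatal transformed cells. All modified arrays were above all control arrays at both ages. Lef1 was above background on 3 of 5 embryonic and 1 of 5 postnatal control arrays, so the size of its rise depends on the offset. It was 2.73 ± 0.44 (SE; adjusted p = 2.4e-05) in the embryonic and 3.09 ± 0.44 (adjusted p = 4.07e-06) in the postnatal response, and ranged with offsets of 1 and 64 from 2.92 to 2.31 and from 3.35 to 2.58. The dimmer of its 2 probe sets gave 1.06 ± 0.46 (adjusted p = 0.0874) and 2.02 ± 0.46 (adjusted p = 0.00125). The modified groups had nearly the same mean, 898 and 910.

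Axin2 is a scaffold of the destruction complex and is induced by the pathway. Its signals were 1352, 1756, 1364, 1542 and 1631 in embryonic control and 1003, 1202, 1154, 1326 and 1311 in embryonic transduced cells. They were 1200, 1394, 1273, 1144 and 1051 in postnatal control and 740, 795, 901, 733 and 867 in postnatal transformed cells. The modified arrays lay below the control arrays at both ages without overlap, by a margin that was small beside the 2-fold threshold. The log2 change was -0.35 ± 0.12 (adjusted p = 0.0272) in the embryonic and -0.58 ± 0.12 (adjusted p = 0.000476) in the postnatal response. The dimmer second probe set, above background on 3 or 4 of 5 arrays of each group, gave -0.62 ± 0.53 and -0.64 ± 0.53, neither past the test.

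Lgr5 was highest in embryonic control cells. Embryonic control arrays read 5971, 6804, 6440, 6130 and 5425, and embryonic transduced arrays 2829, 3054, 2883, 2552 and 2618. Postnatal control arrays read 1678, 1413, 1759, 1060 and 1217, and postnatal transformed arrays 1265, 1306, 1118, 980 and 1243. The embryonic groups were fully separate from each other and from both postnatal groups, whereas the postnatal groups overlapped. Lgr5 fell by 1.14 ± 0.12 on the log2 scale in the embryonic response (adjusted p = 1e-07), and the postnatal change was -0.25 ± 0.12 (adjusted p = 0.112), or -0.45 (adjusted p = 0.00133) without postnatal control arrays 4 and 5. The difference between these responses was 0.89 ± 0.17 (adjusted p = 0.000226), short of 2-fold. A second, dim probe set, above background on 3 of 5 arrays of each embryonic group, gave -0.09 ± 0.51 in the embryonic response. It was above background on 1 of 5 postnatal control and 4 of 5 postnatal transformed arrays. With the mean of both probe sets the call was lost (-0.61, adjusted p = 0.106) and the postnatal change turned to 0.39.

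Nkd1 binds Dishevelled and dampens the signal that induces it. The signals were 1389, 1212, 1364, 1153 and 1474 in embryonic control, and 1363, 1477, 1553, 1175 and 1269 in embryonic transduced cells. Postnatal control arrays read 1245, 1124, 1141, 579 and 563, and postnatal transformed arrays 2066, 1691, 1767, 2012 and 1610. The embryonic groups overlapped, with a change of 0.05 ± 0.19, whose sign turned after quantile normalization (-0.091), after centring on the 75th percentile (-0.043) and with the mean of all probe sets (-0.035). The postnatal groups did not overlap, and Nkd1 rose by 1.04 ± 0.19 (adjusted p = 0.000101). Control arrays 4 and 5, those with low Mki67, were also the ones with the lowest Nkd1, and without both the change was 0.63 (adjusted p = 0.00029), under 2-fold. It was likewise under 2-fold without array 4 alone (0.89), array 5 alone (0.88) or transformed array 1 (0.99), with the mean of all probe sets (0.79) and with an offset of 64 (0.995). Of the other 3 probe sets, 1 was called with 1.18 ± 0.14, while the remaining ones gave 0.34 ± 0.19 and 0.61 ± 0.54.

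Among the secreted inhibitors, Wif1, which binds Wnt ligands directly, was near background in 1 group only. It read 1671, 1016, 1793, 1299 and 1200 in embryonic control, 2129, 1933, 1647, 1794 and 927 in embryonic transduced and 1139, 1475, 1229, 1622 and 1502 in postnatal transformed cells. In postnatal control it read 231, 14.9, 104, 198 and 145, above background on 2 of 5 arrays. The 3 other groups overlapped one another. The mean signal therefore went from 139 ± 84.5 (SD, n = 5) to 1393 ± 201 in the postnatal response, with a fitted rise of 3.47 ± 0.39 (adjusted p = 1.6e-07) that ranged from 3.75 to 2.97 with offsets of 1 and 64. In embryonic cells the change was 0.25 ± 0.39 (adjusted p = 0.685), and the difference between the responses was 3.23 ± 0.55 (adjusted p = 5.51e-05). Wif1 had 1 probe set, so no second measurement was at hand.

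Sfrp2, which carries a Frizzled-like domain that binds ligands, showed the opposite change in postnatal cells. It read 1910, 2488, 1794, 1171 and 1155 in postnatal control and 142, 240, 272, 82.1 and 134 in postnatal transformed cells, where it was above background on 2 of 5 arrays. The groups were far apart, with a fitted change of -3.22 ± 0.23 (adjusted p = 1.86e-10), between -3.35 and -2.90 with offsets of 1 and 64. In the embryonic cells the signals were 3636, 4170, 3755, 4143 and 3746 before and 5053, 4790, 5265, 5177 and 5333 after transduction. These groups did not overlap either, but the change of 0.40 ± 0.23 did not pass the test (adjusted p = 0.201). The fit uses 1 spread per gene for all 4 groups, so the test does not weigh this change by the embryonic spread alone. The SD was 248 at a mean of 3890 and 214 at 5124 in the embryonic groups. It was 79.2 at 174 in postnatal transformed cells. The responses differed by -3.62 ± 0.33 (adjusted p = 1.06e-08). Sfrp2 also had 1 probe set.

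Its relative Sfrp1 was higher in both responses by a similar amount. The representing probe set read 1932, 1899, 1991, 1626 and 1960 in embryonic control and 2986, 3727, 3905, 3270 and 3010 in embryonic transduced cells. In postnatal control it read 1443, 1016, 993, 1293 and 1676, and in postnatal transformed cells 1728, 2584, 2116, 2299 and 2442. Modified and control arrays were separate at both ages, with changes of 0.83 ± 0.14 (adjusted p = 3.85e-05) and 0.81 ± 0.14 (adjusted p = 4.93e-05) that fell short of 2-fold. Sfrp1 had 5 probe sets, and the second brightest, with a mean of 1481 in embryonic and 1015 in postnatal control, was called in both responses, with 1.27 ± 0.10 and 1.22 ± 0.10. All 5 gave positive values, from 0.53 to 1.27 in the embryonic and from 0.69 to 1.59 in the postnatal response, and the mean of the probe sets was called in the postnatal response (1.09) but not in the embryonic one (0.96). Between the responses the difference was -0.03 ± 0.20, with a 95% confidence interval from -0.44 to 0.38.

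Dkk3 belongs to the Dickkopf family, in which it is the member least tied to Wnt inhibition. Its signals were low, 214, 367, 420, 337 and 255 in embryonic control and 691, 485, 619, 530 and 531 in embryonic transduced cells. The groups did not overlap, and the change was 0.84 ± 0.23 (adjusted p = 0.00557), short of 2-fold. The postnatal groups, at 245 to 428 in control and 291 to 448 in transformed cells, overlapped (0.29 ± 0.23, adjusted p = 0.371). A dimmer second probe set gave 0.65 ± 0.45 and 0.50 ± 0.45, neither past the test.

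The receptor Fzd1 was measured with the smallest standard error of the 9 genes. It read 4583, 5260, 5309, 4952 and 5569 in embryonic control and 11330, 11117, 12708, 12701 and 13103 in embryonic transduced cells. Postnatal control arrays read 2995, 4555, 3276, 3513 and 3728, and postnatal transformed arrays 9546, 9677, 9858, 9470 and 9700. The lowest modified array at each age was above the highest control array of either age. Fzd1 rose by 1.24 ± 0.09 (adjusted p = 9.83e-11) in the embryonic and by 1.43 ± 0.09 (adjusted p = 1.02e-11) in the postnatal response, and its second probe set was called in both (1.04 ± 0.22 and 1.81 ± 0.22). The difference between the responses, 0.18 ± 0.12, did not pass the test (adjusted p = 0.265; 95% confidence interval from -0.07 to 0.44).

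**Figure D2:**
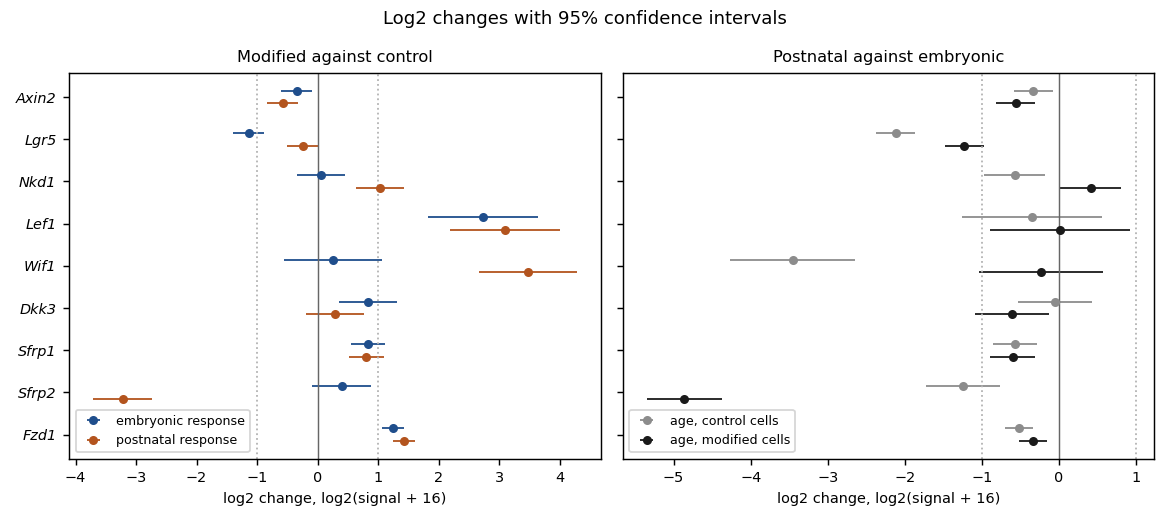
Log2 changes (points) with 95% confidence intervals (bars) of 9 genes on the log2(signal + 16) scale, for modified against control cells (left) and postnatal against embryonic cells (right), with dotted lines at 2-fold. Lef1 and Fzd1 lie right of the upper 2-fold line in both responses, and Wif1 (3.47) and Sfrp2 (-3.22) stand apart in the postnatal one.

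By count, 2 of the 9 genes were called higher and 1 lower in the embryonic response, where 8.61% and 5.74% of all 18193 genes were called. In the postnatal response 4 were called higher and 1 lower, beside 9.56% and 6.4% of all genes. Without arrays 4 and 5 of the control, Nkd1 was no longer called. The groups were without overlap for 7 of 9 genes in each response, against 34.8% of all genes in the embryonic and 32.2% in the postnatal one. The median change of the 9 genes was 0.40 and 0.81, that of all genes 0.08 and -0.002. With 9 genes, chosen with earlier results of these data known, these counts describe the list and no more. Of all genes called in the embryonic response 60.0% were higher, and 51.2% after quantile normalization.

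**Figure D3:**
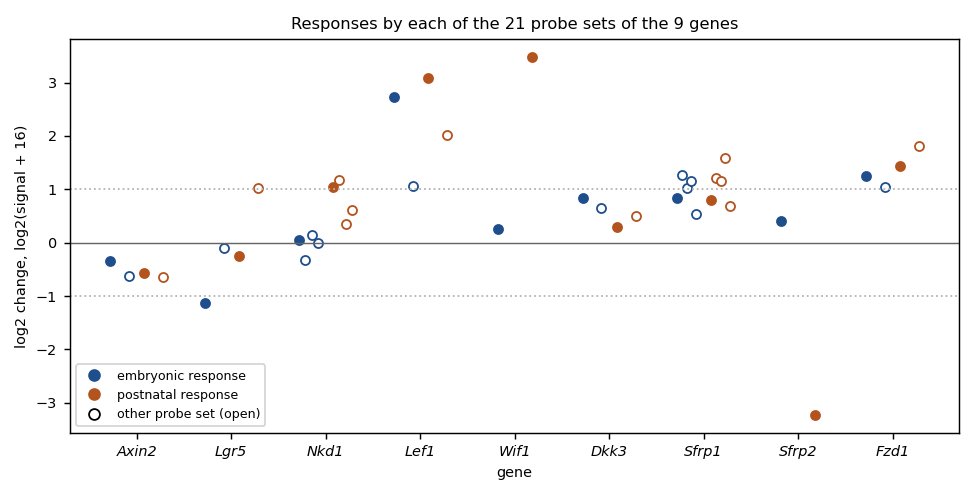
Log2 change of each of the 21 probe sets of the 9 genes in the embryonic and postnatal responses, on the log2(signal + 16) scale, with the brightest probe set of a gene filled and the others open. All 5 Sfrp1 and both Fzd1 probe sets lie above 0 in both responses, while the 2 Lgr5 probe sets lie on opposite sides of 0 in the postnatal one (-0.25 and 1.03). The open Lgr5 probe set was above background on 1 of 5 postnatal control arrays.

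As an interaction, Wif1 was called with a higher and Sfrp2 with a lower change in postnatal than in embryonic cells, beside 9.36% and 9.75% of all genes. The responses of Nkd1 differed by 0.99 ± 0.27 (adjusted p = 0.0051), just under 2-fold and above it after quantile normalization (1.12) or centring on the 75th percentile (1.10). Without postnatal control arrays 4 and 5 that value was 0.58. Another Nkd1 probe set was called as an interaction (1.505 ± 0.20, adjusted p = 2.98e-06), and the remaining ones gave 0.20 ± 0.27 and 0.62 ± 0.76. Age and the kind of modification cannot be told apart in these differences.

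The control cells of the 2 ages differed most in Wif1, Lgr5 and Sfrp2, all lower in postnatal cells. These 3 of 9 genes were called lower and none higher, beside 5.72% and 4.86% of all genes, and 4 of 9 were without overlap between the groups, beside 22.2% of all genes. Wif1 was at -3.46 ± 0.39 (adjusted p = 5.04e-07), with postnatal control near background. Lgr5 fell by 2.12 ± 0.12 (adjusted p = 1.97e-11), and its dim probe set was also called (-1.43 ± 0.51). That probe set was above background on 3 of 5 embryonic and 1 of 5 postnatal control arrays, and its groups overlapped. Sfrp2 was lower by 1.24 on the log2 scale (-1.24 ± 0.23, adjusted p = 0.00026), but by 0.92 without postnatal control arrays 4 and 5 (-0.92, adjusted p = 0.00377), which were its lowest. Fzd1 was at -0.52 ± 0.09, short of 2-fold, while its second probe set was called lower (-1.02 ± 0.22, adjusted p = 0.00111). This comparison shares the embryonic control arrays with the embryonic response and the postnatal control arrays with the postnatal response.

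Between the modified groups, 2 of 9 genes were called lower in postnatal transformed than in embryonic transduced cells and none higher, beside 13.7% and 11.7% of all genes. They were Sfrp2 (-4.86 ± 0.23, adjusted p = 9.18e-14) and Lgr5 (-1.23 ± 0.12, adjusted p = 1.3e-08), a call that Lgr5 lost with the mean of its probe sets (-0.77). Nkd1 was at 0.42 ± 0.19 (adjusted p = 0.0734), but another of its probe sets was called higher (1.20 ± 0.14, adjusted p = 2.19e-07). The remaining Nkd1 probe sets gave 0.105 ± 0.19 and -0.18 ± 0.54. The groups were without overlap for 7 of 9 genes, beside 46.6% of all genes. The summed proliferation signal of these groups was 162040 to 181020 and 23708 to 28578. Lef1 (0.02 ± 0.44, 95% confidence interval from -0.89 to 0.93) and Wif1 (-0.23 ± 0.39, from -1.04 to 0.58) had wide intervals around 0.

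The order of the 4 group means differed from gene to gene. Fzd1 was highest in embryonic transduced, then postnatal transformed, embryonic control and postnatal control, and each step passed the test (adjusted p between 8.19e-09 and 0.00215). Sfrp1 and Dkk3 had the same order, but neither the step from postnatal transformed to embryonic control (adjusted p = 0.178 and 0.458) nor, for Dkk3, that from embryonic to postnatal control (0.896) passed. By the second brightest Sfrp1 probe set, postnatal transformed arrays (2232 to 2480) lay above embryonic control arrays (1348 to 1609) without overlap. By the dimmer Sfrp1 probe sets these groups overlapped. That step was not tested for single probe sets. By the second Fzd1 probe set the modified groups differed by -0.26 ± 0.22 (postnatal against embryonic), which did not pass (adjusted p = 0.367). Lgr5 ran from embryonic control over embryonic transduced to postnatal control and postnatal transformed. With all arrays the last pair did not differ in the test (adjusted p = 0.112). Without postnatal control arrays 4 and 5 that step passed the test, short of 2-fold, as given above. Sfrp2 was highest in the embryonic groups, then in postnatal control and lowest in postnatal transformed cells. The embryonic groups did not overlap, but the step between them did not pass the test (adjusted p = 0.201). Wif1 had 3 groups whose neighbours did not differ in the test (adjusted p = 0.659 and 0.98) above postnatal control, and Lef1 had the modified pair (adjusted p = 0.977) above the control pair (adjusted p = 0.611). In Axin2 the lowest group was postnatal transformed, while postnatal control and embryonic transduced, in the middle, were alike in mean (1212 and 1199, adjusted p = 0.933). Nkd1 was highest in postnatal transformed cells and lowest in postnatal control. No step between its upper 3 groups passed the test (adjusted p = 0.0734 and 0.874). The arrays of the upper pair, postnatal transformed and embryonic transduced, did not overlap. Another Nkd1 probe set was called between that pair (1.20 ± 0.14, adjusted p = 2.19e-07).

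For the 4 genes with the widest range over group means, the gene with the nearest pattern was sought among 10839 others with a mean signal over 500, as the root mean square difference of centred log2 values over the 20 arrays. For Lgr5 it was Meis1, a homeobox transcription factor, at 0.196, with group means of 6131, 2658, 1625 and 1048 in embryonic control, embryonic transduced, postnatal control and postnatal transformed cells. For Sfrp2 it was Rps6ka6, a ribosomal S6 kinase, at 0.494. Copz2, a coat protein subunit, was nearest to Wif1 at 0.592 with means of 1112, 1850, 207 and 2011. Dennd3 was nearest to Lef1 at 0.603. The last 3 distances are wider than that of Lgr5 to Meis1.

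Other genes of the pathway were counted over a list of 86, of which 85 were measured. This list too was made with earlier results of these data known. In the embryonic response 14 rose and 10 fell (16.5% and 11.8%, beside 8.61% and 5.74% of all genes), with a median change of 0.07. With the mean of all probe sets of a gene 10 rose and 5 fell. Of all genes, 2429 were then called, 1535 of them higher, against 2611 and 1567 with the brightest probe set. Of the receptors and co-receptors, 8 of 17 (47.1%) were called higher and none lower (median 0.41). Of the Frizzled receptors, Fzd7 rose by 3.63 ± 0.13 (mean signal 3047 to 37803), Fzd6 by 2.68 ± 0.23 and Fzd8 by 2.04 ± 0.18. Of the ligands, 2 of 19 (10.5%) rose, near the share of all genes, and 3 (15.8%) fell, among them Wnt7a (-2.61 ± 0.19, 4985 to 814) and Wnt7b (-1.91 ± 0.21), which act on oligodendrocyte precursors and brain vessels. Among 10 other target genes 1 rose and 1, the G1 cyclin Ccnd1, fell (-1.91 ± 0.20). Of the other secreted inhibitors 2 of 8 fell and none rose.

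In the postnatal response 12 of the 85 rose and 10 fell (14.1% and 11.8%, beside 9.56% and 6.4% of all genes), with a median of 0.03. Without postnatal control arrays 4 and 5, 8 rose and 10 fell. Of all genes, 3002 were then called, 1682 of them higher, against 2904 and 1739 with these arrays. The inhibitor Frzb, a relative of the Sfrp genes, rose by 3.71 ± 0.24 (mean signal 1034 to 13334) and the receptor Fzd9 by 2.94 ± 0.11 (1835 to 14157). Fzd6 was called higher here too (1.91 ± 0.23), as in the embryonic response, while Fzd7 (0.99 ± 0.13) and Fzd8 (-0.11 ± 0.18) were not called. Rspo1, which prolongs Wnt receptor life, rose at least 1.23-fold from a control level below background on all arrays, and lay above it on 4 of 5 transformed arrays. Of 24 intracellular genes 5 (20.8%) fell and 1 (4.17%) rose. Among those that fell were the DNA-binding Tcf7l1 (-2.49 ± 0.16, 3932 to 669) and Tcf7l2 (-2.38 ± 0.29, 4725 to 748), relatives of Lef1. Tcf7l2 was called lower in the embryonic response as well (-1.02 ± 0.29, adjusted p = 0.00724), whereas Tcf7l1 was not (0.59 ± 0.16). In the postnatal response the receptor Fzd3 also fell (-2.31 ± 0.07, 13463 to 2703). Fzd3 lies on chromosome 14, whose 354 genes with a mean signal over 500 had a median of -0.86 in this response, against -0.22 to 0.21 for the other autosomes.

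**Figure D4:**
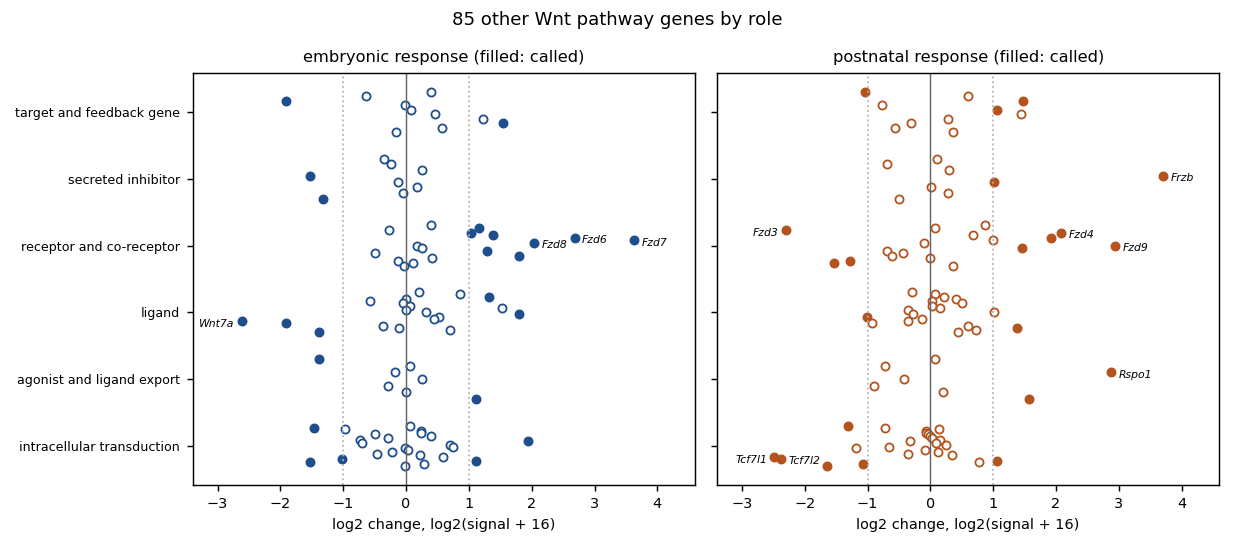
Log2 change of 85 other Wnt pathway genes on the log2(signal + 16) scale in the embryonic (left) and postnatal (right) responses, by role, with called genes filled, dotted lines at 2-fold and names at changes of at least 4-fold. Receptors on the left reach 3.63 (Fzd7) with none called lower, and on the right Frzb reaches 3.71 and Tcf7l1 -2.49.

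As an interaction, 13 of the 85 genes had a higher and 19 a lower change in postnatal cells (15.3% and 22.4%, beside 9.36% and 9.75% of all genes). The largest excess was that of Frzb (5.23 ± 0.35) and Ccnd1 (3.38 ± 0.29), each of which fell in the embryonic response (-1.52 ± 0.24 and -1.91 ± 0.20) and rose in the postnatal one (3.71 ± 0.24 and 1.47 ± 0.20). Rspo1 followed, with a fitted value only. The largest deficits were those of Tcf7l1 (-3.07 ± 0.23), Fzd7 (-2.64 ± 0.18) and the co-receptor Lrp5 (-2.42 ± 0.56), which was above background on 3 of 5 postnatal control and 2 of 5 transformed arrays. Without postnatal control arrays 4 and 5 the counts were 9 and 18. Of all genes, 3683 were then called, 1704 of them higher, against 3475 and 1702 with these arrays.

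In control cells, 3 of the 85 were higher and 15 lower in postnatal than in embryonic progenitors (3.53% and 17.6%, beside 4.86% and 5.72% of all genes). Without postnatal control arrays 4 and 5 the counts were 2 and 11. The calls over all genes also dropped without these arrays, from 1925 (884 of them higher) to 1367 (700 higher). Fzd7 was lower by 2.60 (-2.60 ± 0.13, 3047 to 500), Fzd2 was at -2.56 ± 0.15, and the co-repressor Tle4 at 1.59 ± 0.19 (4539 to 14015). The inhibitor Sostdc1 read 448 and 107, above background on 2 of 5 postnatal arrays. Tnfrsf19, a receptor of the tumour necrosis factor family, was higher by 1.14 ± 0.17, and Dvl3, below background in embryonic control, was higher at least 1.59-fold. Between the modified groups 9 were higher and 23 lower in postnatal cells (10.6% and 27.1%, beside 11.7% and 13.7% of all genes), so that the higher calls were near the share of all genes. Of the receptors and co-receptors, 11 of 17 were lower and 1, Fzd9 (2.44 ± 0.11), higher. Fzd7 (-5.23 ± 0.13) and Fzd2 (-3.64 ± 0.15) were lower, as was the ligand Wnt5a (-3.81 ± 0.30). Wnt5a was at 1.79 ± 0.30 in the embryonic response and at -1.73 ± 0.30 between the controls. It also lies on chromosome 14, whose median was taken for the postnatal response only. In that response Wnt5a was at -0.29 ± 0.30 (adjusted p = 0.513). Frzb, above background on 4 of 5 embryonic transduced arrays, was at 5.39 ± 0.24 and Ccnd1 at 2.93 ± 0.20.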

How the data were processed

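Total RNA of 20 samples was measured on single-colour Affymetrix arrays. The deposited values were linear intensities for 45101 probe sets per array. How the authors computed them (software, background correction, normalization) is not given in the sources used here. Their mean after trimming 2% at each end was 2500.01 to 2500.02 on every array, so they were used as deposited. Background was the 95th percentile of 27 bacterial control probe sets, and 61.3% to 73.2% of probe sets lay above it. The number of arrays limits the precision. No 2 of the 190 pairs of arrays were identical.

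Without the 64 control probe sets, 34945 carried 1 gene symbol in the platform annotation, and the brightest represented each of 18193 genes. A model of 4 group means was fitted over all genes with limma 3.58.1 (intensity trend; R 4.3.3 with the package data.table, version 1.17.8), two-sided with Benjamini-Hochberg adjustment, and tested on simulated data. Single probe sets were tested in a second fit over all probe sets but the controls. Alternatives were quantile normalization, centring on the 75th percentile, offsets of 1 and 64, a filter on dim genes, the mean of a gene's probe sets, no fold threshold, no intensity trend, the replicate number as a block, and leaving out single arrays or postnatal control arrays 4 and 5. Folds against a group below background on all arrays are lower bounds against the background level. The members, the lists and the alternatives were chosen with earlier results of these data known. Named among the other pathway genes were up to 3 risers and 3 fallers per comparison, the largest among those called and, except for the interaction, without overlap, and for 4 members the gene with the most similar pattern. Upstream sequences came from RefSeq.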

Additional observations from a re-analysis of the deposited data

Results flagged for a closer look

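The responses of 4 genes differed between embryonic and postnatal cells at an adjusted p under 0.05 of the interaction term. The differences were 3.23 for Wif1 and -3.62 for Sfrp2, and, short of 2-fold, 0.889 for Lgr5 and 0.987 for Nkd1. Wif1 was higher on 5 of 5 transformed arrays than on any postnatal control array, and Sfrp2 was lower on 5 of 5.

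Embryonic control array 4 read 1626 for Sfrp1, below the other 4 arrays, with a gap of 0.747 of the group's range to the nearest of them. This was the only such value among 36 groups of 5 signals, and chance alone marks about 1 in 20 groups.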

How the results depend on the processing

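The counts of called genes for the 9 genes and for the 85 others stayed within 1.5 times in 290 of 300 recalculations, including all 200 that left out 1 array. Without a fold threshold, the called members numbered 6 in the embryonic response, 7 and 6 in the age comparisons of control and modified cells and 4 in the difference of responses. Beside them stood 7162, 5830, 9479 and 7083 of all 18193 genes. The other pathway genes numbered 40, 38 and 32 in the embryonic response, the postnatal response and the age comparison of control cells, beside 7162, 7692 and 5830 of all genes. With the mean of all probe sets, 1 member was called between the modified groups and 15 other genes in the embryonic response, beside 4378 and 2429 of all genes. Centring on the 75th percentile gave 4 members in the difference of responses, beside 3463 of all genes. Leaving out 1 array gave 4 to 5 called members in the postnatal response and 2 to 3 in the difference of responses.

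Quantile normalization moved the median of all genes by 0.11 in the difference of responses and by 0.139 in the age comparison of modified cells. Of 1350 recalculated log2 changes, 25 turned in sign, and none of these was of a called value. Lgr5 in the postnatal response became 0.39 with the mean of probe sets. Nkd1 in the embryonic response became -0.091 (quantile), -0.043 (75th percentile) and -0.035 (mean of probe sets). The Sfrp1 difference of responses became 0.085 after quantile normalization, 0.083 after centring on the 75th percentile, 0.13 with the mean of probe sets and 0.12 without postnatal control arrays 4 and 5, and ranged from -0.11 to 0.074 with 1 array left out. Dkk3 between the controls became 0.11 without these 2 arrays and ranged from -0.18 to 0.050 with 1 left out. With 1 left out, Lef1 ranged from -0.67 to 0.035 between the controls, from -0.050 to 0.10 between the modified groups and from -0.016 to 0.69 in the difference of responses. The cause was not tested.

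The labels number the arrays, but same-numbered control and modified arrays did not deviate together (r from -0.116 to 0.115 over 10 pairs, 1 of them best matched to its own number). With the replicate number as a block, the called members numbered 3, 5, 2, 3 and 2 in the 5 comparisons, as without it, and the other genes 23, 22, 32, 19 and 31. Signal near background limits Lef1, Wif1 and Sfrp2 in their dim groups.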
